A study of Mus musculus with 30 samples.

Results

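Endothelium sorted from the thymus of newborn mice was compared with the 4 other stromal populations of the same organ. It is represented by 6 of the 30 RNA-sequencing libraries, and the other 24 comprise epithelial cells of the medulla (mTEC) and of the cortex (cTEC) and 2 mesenchymes, positive for CD146 and for CD140a, with 6 libraries each. Endothelial cells were gated as EpCAM-negative and CD31-positive, both mesenchymes as negative for EpCAM and CD31, cTEC as EpCAM-positive with Ly51, and mTEC as EpCAM-positive with little or no Ly51. All gates lacked CD3, CD4, CD8, CD45 and TER119, and CD45-positive cells had been depleted on magnetic beads. The mice were of strain B6.SJL and of mixed sex. They were injected at postnatal day 1 with aflibercept, called Trap here, a decoy receptor that binds VEGF-A, or with human Fc protein as control, and thymi were taken 2 days later. Each population had 4 Trap and 2 control libraries, so the endothelium comprised 4 Trap and 2 control libraries. The labels do not say how many animals entered a library or whether populations came from the same animals, so the spread that p-values measure is that of libraries and can be technical.

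Endothelial cells line blood and lymphatic vessels. Their identity rests on ETS, SOXF and GATA transcription factors, on receptors for VEGF, angiopoietins, Notch ligands and BMPs, and on VE-cadherin junctions that seal the vessel wall. In the thymus, the vessels admit T cell progenitors from blood, let mature T cells leave along a sphingosine-1-phosphate gradient, and supply signals such as Kit ligand. The other populations form the surroundings of these vessels: mural cells wrap them, fibroblasts ensheathe them, and epithelial cells carry the developing T cells.

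Levels are the authors' FPKM, fragments per kilobase of gene scaled to a library's fragments, which allows levels to be compared between genes. Differences are endothelium minus the mean of the 4 other population means on log2(FPKM + 1), a scale that understates changes of genes at low levels. All 16425 genes that reached 1 FPKM in at least 2 libraries were tested in limma, with p adjusted over all of them by the Benjamini-Hochberg method, and a difference counted as passed where this adjusted p lay below 0.05. The depth behind a value is unknown. In bulk samples, fewer cells of a type and less RNA per cell cannot be told apart.

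Between 10298 and 11304 genes reached 1 FPKM in the endothelial libraries, whose values correlated across genes at 0.881 to 0.949 with each other, and at a median of 0.789 with CD146, 0.746 with CD140a, 0.733 with cTEC and 0.648 with mTEC libraries. Of the 10 epithelial markers listed, all were lower in endothelium, and their summed level was 3.15 to 73.0 FPKM (median 7.16) in endothelium, against 1783 to 2311 in mTEC and 2052 to 2373 in cTEC. The highest endothelial sum was that of Trap replicate 2. Its Foxn1, Krt8 and Prss16 values were 11.04, 23.3 and 11.6 FPKM. Summed fibroblast markers stood at 7.30 to 23.3 FPKM in endothelium, against 4952 to 6992 in CD140a mesenchyme, and all 10 were lower. Summed mural markers stood at 69.3 to 121.5 FPKM, against 5007 to 6501 in CD146 mesenchyme, with 8 of 10 lower and Rgs5 making up most of the endothelial sum (70.5 ± 14.7 FPKM, SD, n = 6). Thymocyte markers summed to 5.72 to 13.1 FPKM in endothelium and to 54.97 to 153 in cTEC. Myeloid and B cell markers summed to 5.48 to 13.1 FPKM in endothelium and to 228 to 365 in mTEC, and C1qb is listed at 0 in all 6 endothelial libraries. Platelet markers reached 7.49 FPKM and Schwann cell and mesothelial markers 4.55 FPKM in endothelium at most. Erythroid transcripts went the other way, at 10.6 to 131.7 FPKM (median 82.1) in endothelium and at most 43.3 in the other libraries, with 4 of 7 tested members higher, all of them globins that have near-identical copies. The part of these cells in the results below was not tested, except by leaving out Trap replicate 2.

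The genes that mark endothelium were high in all 6 endothelial libraries and near 0 elsewhere. Cdh5, which encodes VE-cadherin, stood at 599.7, 530.2, 619 and 587 FPKM in the 4 Trap libraries and 621 and 645 FPKM in the 2 control libraries, against 0.13, 0.64 and 1.54 FPKM (lowest, median, highest) in the 24 others. Flt1, VEGF receptor 1, stood at 116, 108, 123 and 136 FPKM in Trap and 131 and 139.8 FPKM in control endothelium, against 0.35, 1.75 and 5.75 FPKM in the others. Kdr, VEGF receptor 2, stood at 102, 102, 108 and 88.6 FPKM in Trap and 151 and 131 FPKM in control endothelium, against 0.03, 0.14 and 0.97 FPKM in the others. No endothelial library overlapped with any other library for these genes. For Kdr the change of the difference between treatments did not pass (-0.55 ± 0.24, limma adjusted p = 0.367). Pecam1 encodes CD31, on which the cells were sorted, so its level (321 ± 14.9 FPKM, against 0.76 to 3.6 in the others) checks the sort and is no finding. In GRCm38, Cdh5 lies on chromosome 8 at 104101625 to 104144511, Kdr on chromosome 5 at 75932827 to 75978458 and Flt1 on chromosome 5 at 147561604 to 147726011. The other sorting genes gave Epcam 1.84 ± 1.94 FPKM in endothelium against 306 in cTEC, Pdgfra 0.617 against 121 in CD140a mesenchyme, Enpep 0.237 against 22.7 in cTEC, and Mcam 110.1 ± 18.7 against 131 ± 18.04 in CD146 mesenchyme. Mcam, the gene of CD146, was the exception among them in that endothelium did not differ from the CD146 gate (log2 difference -0.26 ± 0.202, SE, limma adjusted p = 0.357).

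**Figure D1:**
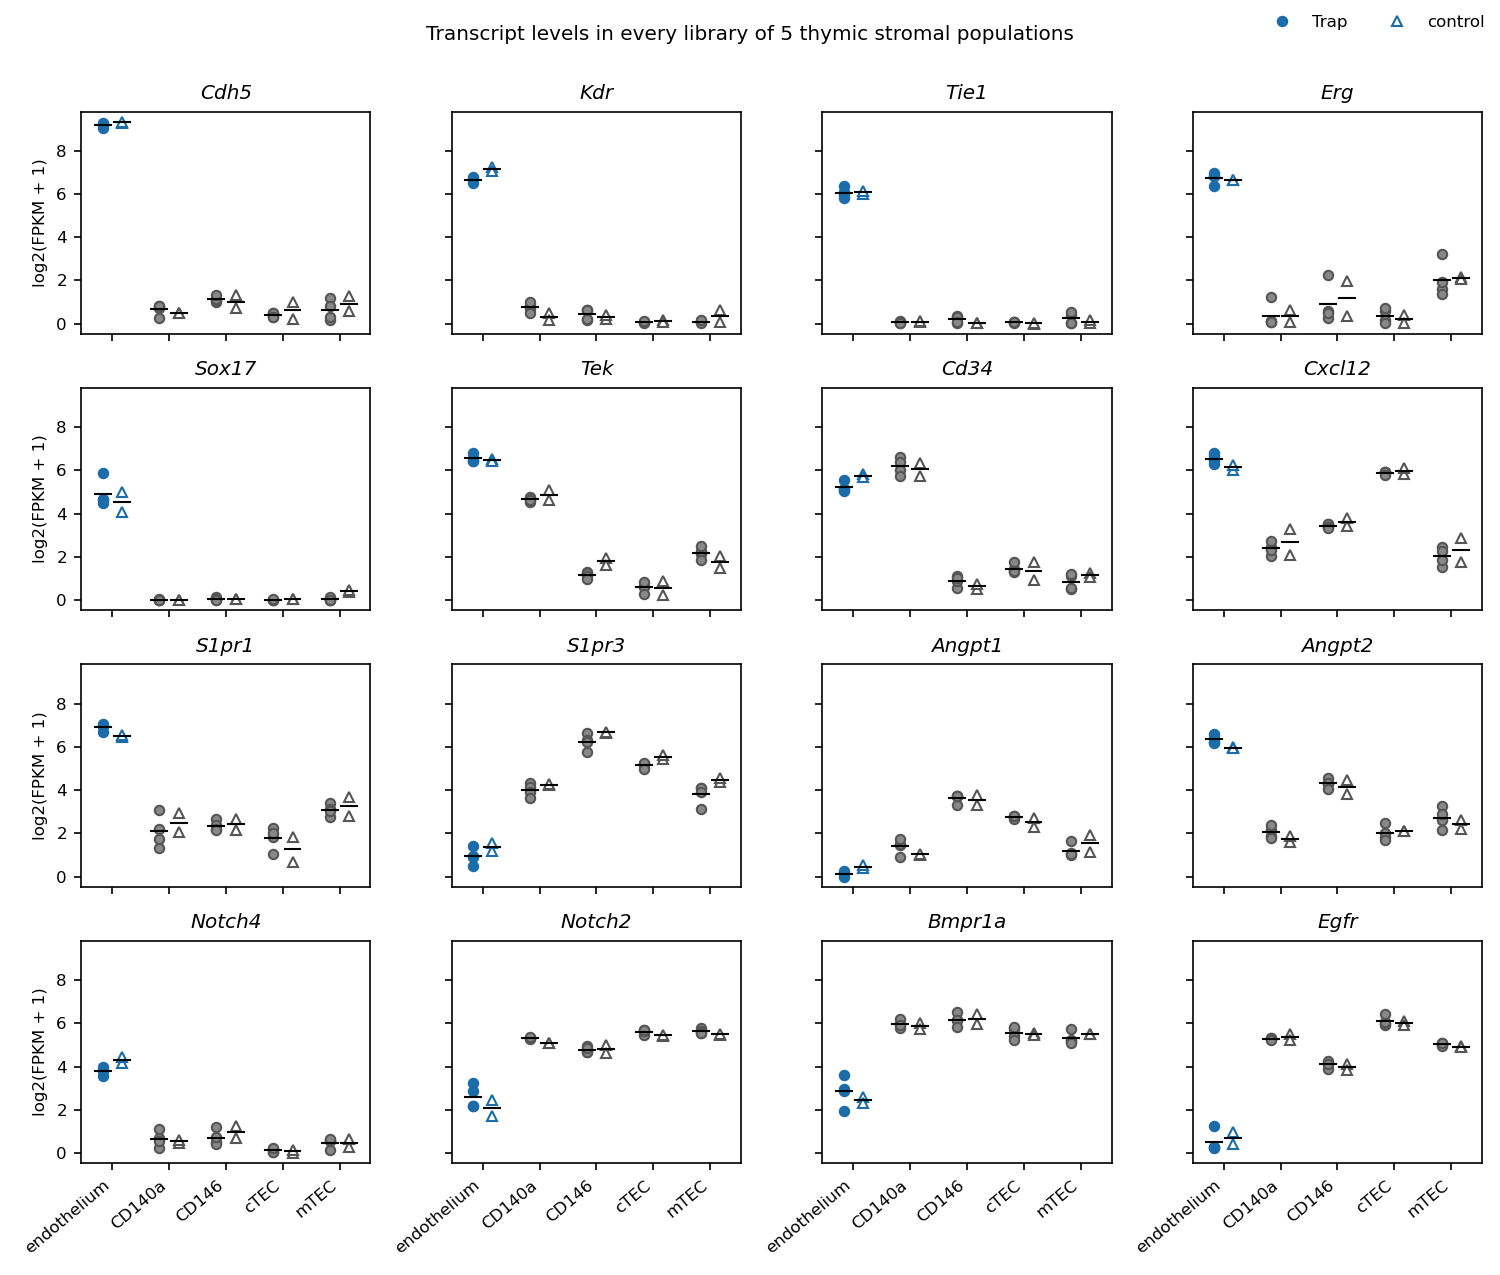
FPKM on a log axis for 16 genes in each of the 30 libraries, by population, with filled circles for Trap, open triangles for control and black lines for group means. Cdh5, Kdr, Tie1, Erg, Sox17 and Tek separate endothelium from every other library, Tek with a lower level also in CD140a mesenchyme. Cd34 and Cxcl12 overlap with another population, and for S1pr3, Angpt1, Notch2, Bmpr1a and Egfr endothelium lies below every other library.

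Against the mean of the 4 other populations, 3006 of 16425 genes (18.3%) were higher in endothelium and 6049 (36.8%) lower, at a median of -0.19 over all genes. Without Trap replicate 2 the counts were 3051 and 5702. Quantile normalization moved that median by 0.14 and gave 3786 higher and 4575 lower, so that 45.3% of the called genes were higher against 33.2% before. A mean of 4 populations mixes unlike neighbours, and the single contrasts differed in balance. Endothelium was higher in 3461 genes (21.1%) and lower in 3580 (21.8%) against CD140a mesenchyme, higher in 2584 (15.7%) and lower in 3619 (22%) against CD146 mesenchyme, and higher in 3157 (19.2%) and lower in 4585 (27.9%) against cTEC. Against mTEC 2904 genes (17.7%) were higher and 6886 (41.9%) lower. Quantile normalization turned that balance, to 5136 higher and 4640 lower, with a shift of the median by 0.37.

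Of the 3006 higher genes, 1042 (34.7%) passed against each of the 4 populations, which is 6.34% of all genes tested. A further 938 passed against 3, and in 336 of these the population that endothelium did not exceed was CD146 mesenchyme, followed by mTEC in 273, CD140a mesenchyme in 186 and cTEC in 143. Endothelium was below each of the 4 in 995 genes (6.06%). All 6 endothelial libraries lay above all 24 others in 587 genes (3.57%) and below all of them in 352 (2.14%). The distance to the nearest neighbour was often small: of the 1042 genes, 513 exceeded the nearest population by at least 1 on the log2 scale, 200 by at least 2, 107 by at least 3 and 12 by at least 6. In 174 of them every other population averaged under 1 FPKM.

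**Figure D2:**
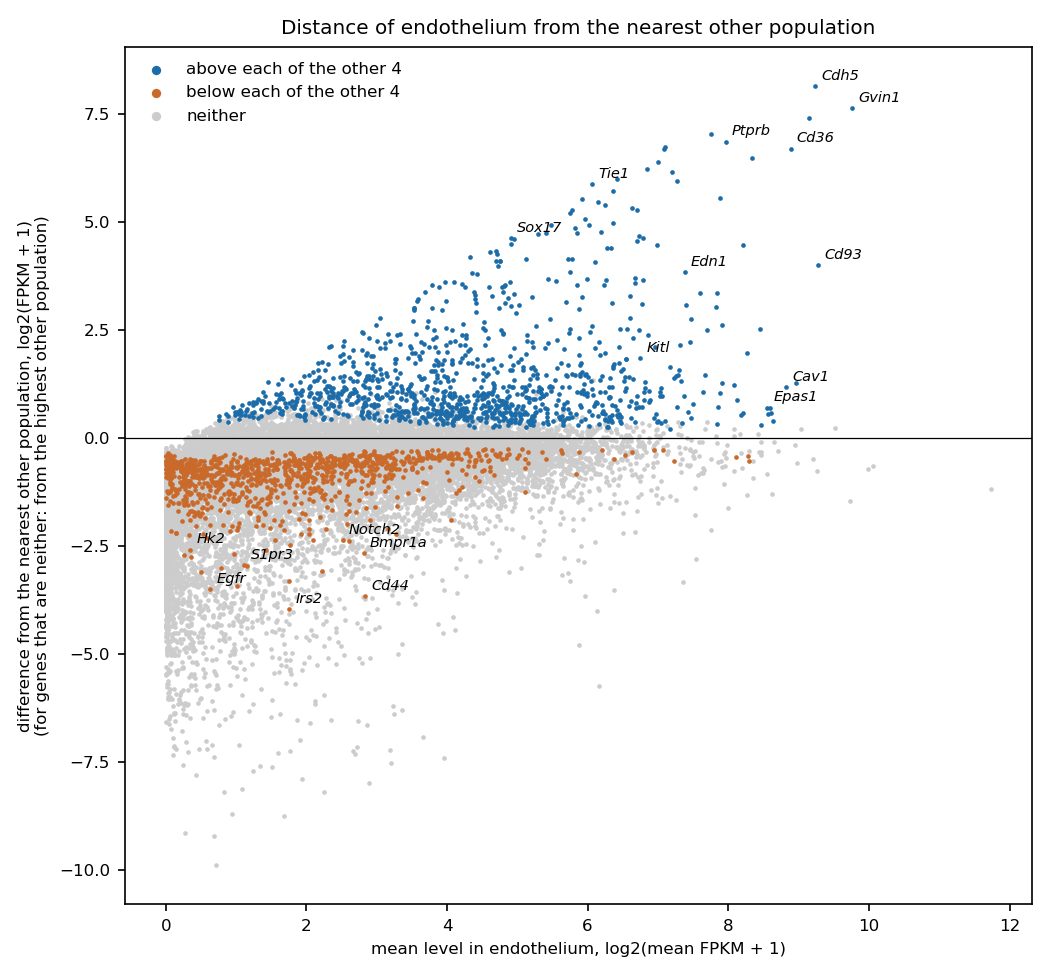
Each point is a gene, with log2(mean FPKM + 1) in endothelium on the x axis and its log2 difference from the nearest other population on the y axis, blue where endothelium was above each of the 4 (1042 genes), orange where below each (995) and grey otherwise. Cdh5 stands farthest from its neighbours, and 513 of the 1042 blue points lie at 1 or more.

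Of the 545 genes that passed, whose libraries did not overlap and whose endothelial mean reached 5 FPKM, the 15 of largest positive difference are described here. Symbols that are only identifiers, genes of the Y chromosome and Xist were left out of this and the following rankings. Cdh5 led with a difference of 8.51 ± 0.14 (SE). Cd36, a receptor for fatty acids and thrombospondin, stood at 616, 405, 522 and 507 FPKM in Trap and 330.5 and 451 FPKM in control endothelium, against 0.08, 1.29 and 6.64 in the others (difference 7.596 ± 0.201). Cd93, a C-type lectin of the endothelial surface, stood at 586, 625, 652 and 611 FPKM in Trap and 579 and 658 FPKM in control endothelium, against 0.12, 0.515 and 50.9 in the others, where the CD146 libraries held the highest values (24.3 to 50.9 FPKM; difference 7.52 ± 0.13). Ptprb, the phosphatase VE-PTP that acts on VE-cadherin and Tie2, averaged 248 ± 24.4 FPKM in endothelium (difference 7.28). Aplnr, the apelin receptor, averaged 215 ± 41.6 FPKM (difference 7.21), and Adgrl4, an adhesion receptor coupled to G proteins, 135 ± 12.2 FPKM (difference 6.85). The water channel gene Aqp1 (6.41), the Ras activator Rasgrp3 (6.35) and the guidance receptor Robo4 (6.21) followed the SOXF factors Sox18 (6.84) and Sox7 (6.52), Kdr (6.505), P-selectin, encoded by Selp (6.5), and the sorting gene Pecam1 (6.697). Passing was a condition for the 15, and their limma adjusted p was 3.62e-20 or less. Gvin1, a large interferon-induced GTPase, had the highest level of the 15 (800.0, 750.0, 938 and 1122 FPKM in Trap and 733 and 840.1 FPKM in control endothelium, against 0, 1.08 and 9.09 in the others; difference 8.36), but the gene has near-identical copies between which reads may have been split, so its value is uncertain.

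At the other end stood 164 genes that were lower without overlap of libraries and averaged at least 5 FPKM in each other population. The receptor for epidermal growth factor, Egfr, had the largest difference. It stood at 0.18, 1.39, 0.23 and 0.21 FPKM in Trap and 0.94 and 0.32 FPKM in control endothelium, against 13.6, 34.8 and 86.5 FPKM in the others (-4.54 ± 0.11, limma adjusted p = 1.03e-21). Irs2, an adaptor of insulin and IGF receptors, stood at 1.05, 4.07, 2.24 and 1.95 FPKM in Trap and 2.38 and 2.59 FPKM in control endothelium, against 41.05, 52.9 and 93.2 in the others (-4.195 ± 0.11). Has2, a hyaluronan synthase, averaged 0.502 ± 1.02 FPKM in endothelium (difference -3.95), with 0.0825 in Trap and 1.34 ± 1.75 in control libraries. Cd44, a receptor for hyaluronan, stood at 8, 5.62, 6.52 and 3.98 FPKM in Trap and 7.63 and 4.89 FPKM in control endothelium, against 64.3, 109 and 146 in the others (difference -3.92). The remaining 11 of the 15 with the largest differences were the atypical cadherin Fat1 (-4.3), the phosphatase Ptpn13 (-4.24), tropomyosin 2, encoded by Tpm2 (-4.14), Plxdc2 (-4.05), the membrane skeleton protein Epb41l3 (-3.88), the sphingosine-1-phosphate receptor S1pr3 (-3.86), the sodium pump subunit Atp1b1 (-3.83), the Wnt pathway regulator Dact1 (-3.78), Fam46a (-3.76), lactate dehydrogenase B, encoded by Ldhb (-3.73), and tissue factor, the starter of coagulation, encoded by F3 (-3.72, at 1.66 ± 1.56 FPKM in endothelium).

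**Figure D3:**
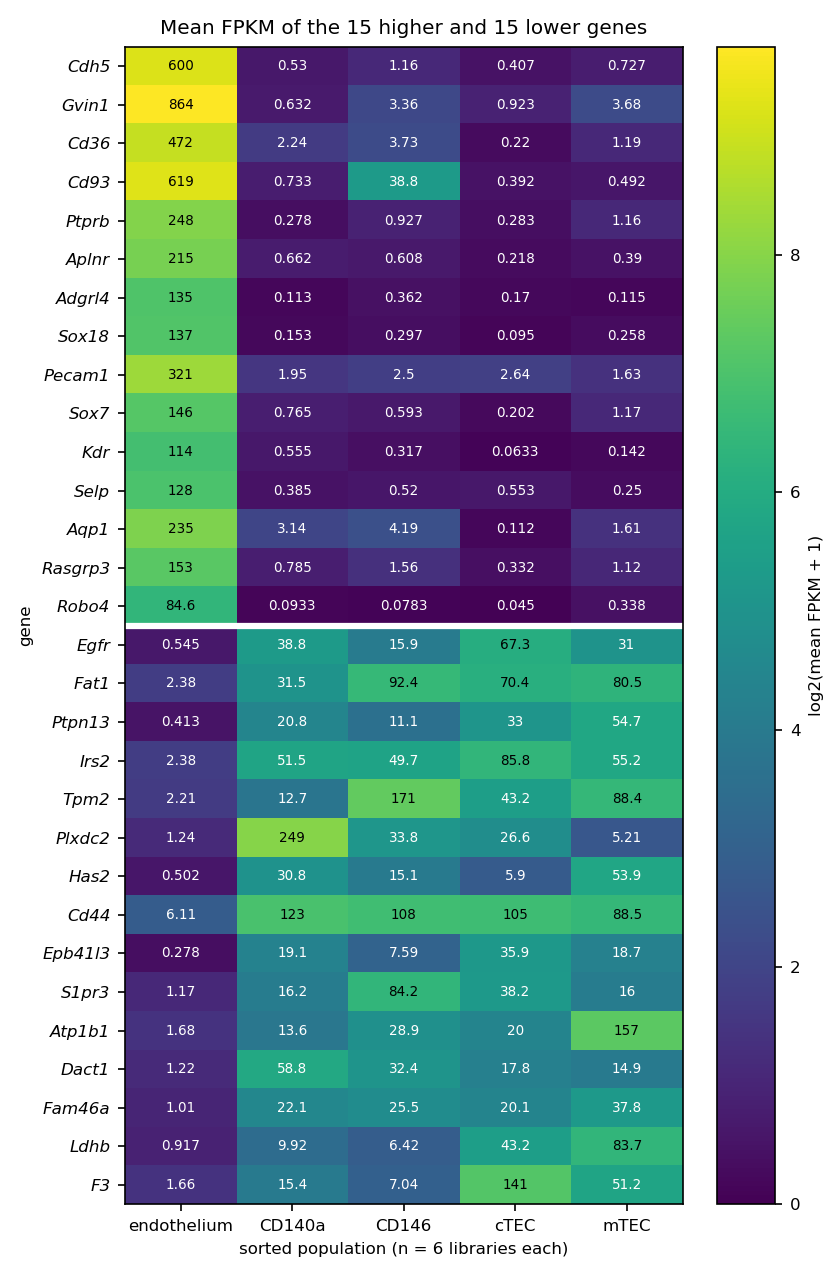
Heat map of mean FPKM on a log scale for the 15 higher and the 15 lower genes, with endothelium in the first column and the 4 other populations after it. The higher genes average 84.6 FPKM or more in endothelium, and the lower ones 6.11 FPKM or less.

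In the single contrasts, the largest positive differences came back to a small set of genes. Cdh5 and Gvin1 were among the 5 largest against each of the 4 populations, Sparcl1, a matricellular protein gene, was added against cTEC (endothelium 375 ± 56.5 FPKM, cTEC 0.74), and Igfbp7 against mTEC (endothelium 729 ± 204 FPKM, mTEC 1.96), and both were also abundant in CD146 mesenchyme (667 and 602 FPKM). The largest negative differences were in genes abundant in the population compared, though not always in that population alone. Against CD140a mesenchyme they were the matrix genes Dpt (-9.21), Col1a1 (-8.74), Dcn (-8.55), Lum (-8.19) and Col3a1 (-7.99). Against CD146 mesenchyme they were smooth muscle actin, encoded by Acta2 (-7.15), Map3k7cl (-6.53), smooth muscle myosin, encoded by Myh11 (-6.52), Pi15 (-5.94) and periostin, encoded by Postn (-5.82). Against cTEC they were Ifi202b (-8.19, a gene with near-identical copies), keratin 18 (-7.88), Sprr1a (-7.47), desmoplakin, encoded by Dsp (-7.296), and the thymus protease Prss16 (-7.24). Against mTEC they were parathyroid hormone, encoded by Pth (-9.88), Bcl2a1d (-9.13, also one of several close copies), Calcb (-8.7), the class II gene H2-Eb1 (-8.11) and lysozyme, encoded by Lyz2 (-7.797). Some were shared between populations. Postn averaged 786 FPKM in CD140a and 524 in CD146 mesenchyme, Pi15 214 and 292, and Sprr1a 491 in mTEC and 393 in cTEC. The epithelial transcripts in Trap replicate 2 stand beside the cTEC and mTEC values: Prss16 was at 0, 11.6, 1.59 and 0.28 FPKM in Trap and 0.98 and 0.02 FPKM in control endothelium.

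Gene groups were then read against the background of 18.3% higher and 36.8% lower. Their members were chosen with earlier results of these data known, so the counts are descriptions. All 21 pan-endothelial genes, the sorting gene Pecam1 among them, were higher, at a median difference of 5.38, and 20 of them were above each of the 4 populations. Tie1, an orphan receptor that partners Tie2, was nearly absent outside endothelium (55.4, 81.4, 59.9 and 67.2 FPKM in Trap and 62.9 and 68.95 FPKM in control endothelium, against 0, 0.04 and 0.43 in the others). Emcn, the sialomucin endomucin, averaged 103 ± 18.3 FPKM, and the secreted matrix protein gene Egfl7 averaged 52.6 ± 10.6 FPKM. Eng, the co-receptor endoglin, averaged 168 ± 18.8 FPKM in endothelium, against 19.2 in CD140a and 14.3 in CD146 mesenchyme. Esam, an adhesion molecule, was shared more with CD146 mesenchyme (50.6 ± 5.81 FPKM in endothelium, 18.1 in CD146), and Ramp2, which pairs with the adrenomedullin receptor, with CD140a mesenchyme (43.9 ± 8.14 in endothelium, 18.9 in CD140a). Cd34 was the exception. This sialomucin stood at 46.01, 34.5, 34.6 and 32.3 FPKM in Trap and 55.7 and 50.04 FPKM in control endothelium, against 52.3 to 96.8 in CD140a mesenchyme (log2 difference -0.73 ± 0.18, limma adjusted p = 0.00117), and at 0.773 to 1.73 FPKM on average in the other 3. With control libraries alone Cd34 did not differ from CD140a mesenchyme by the test (-0.29, limma adjusted p = 0.573). All 21 remained higher with Trap libraries alone (16.1% of all genes higher), with control libraries alone (13.2%), without Trap replicate 2 (18.6%) and after quantile normalization (23.1%).

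**Figure D4:**
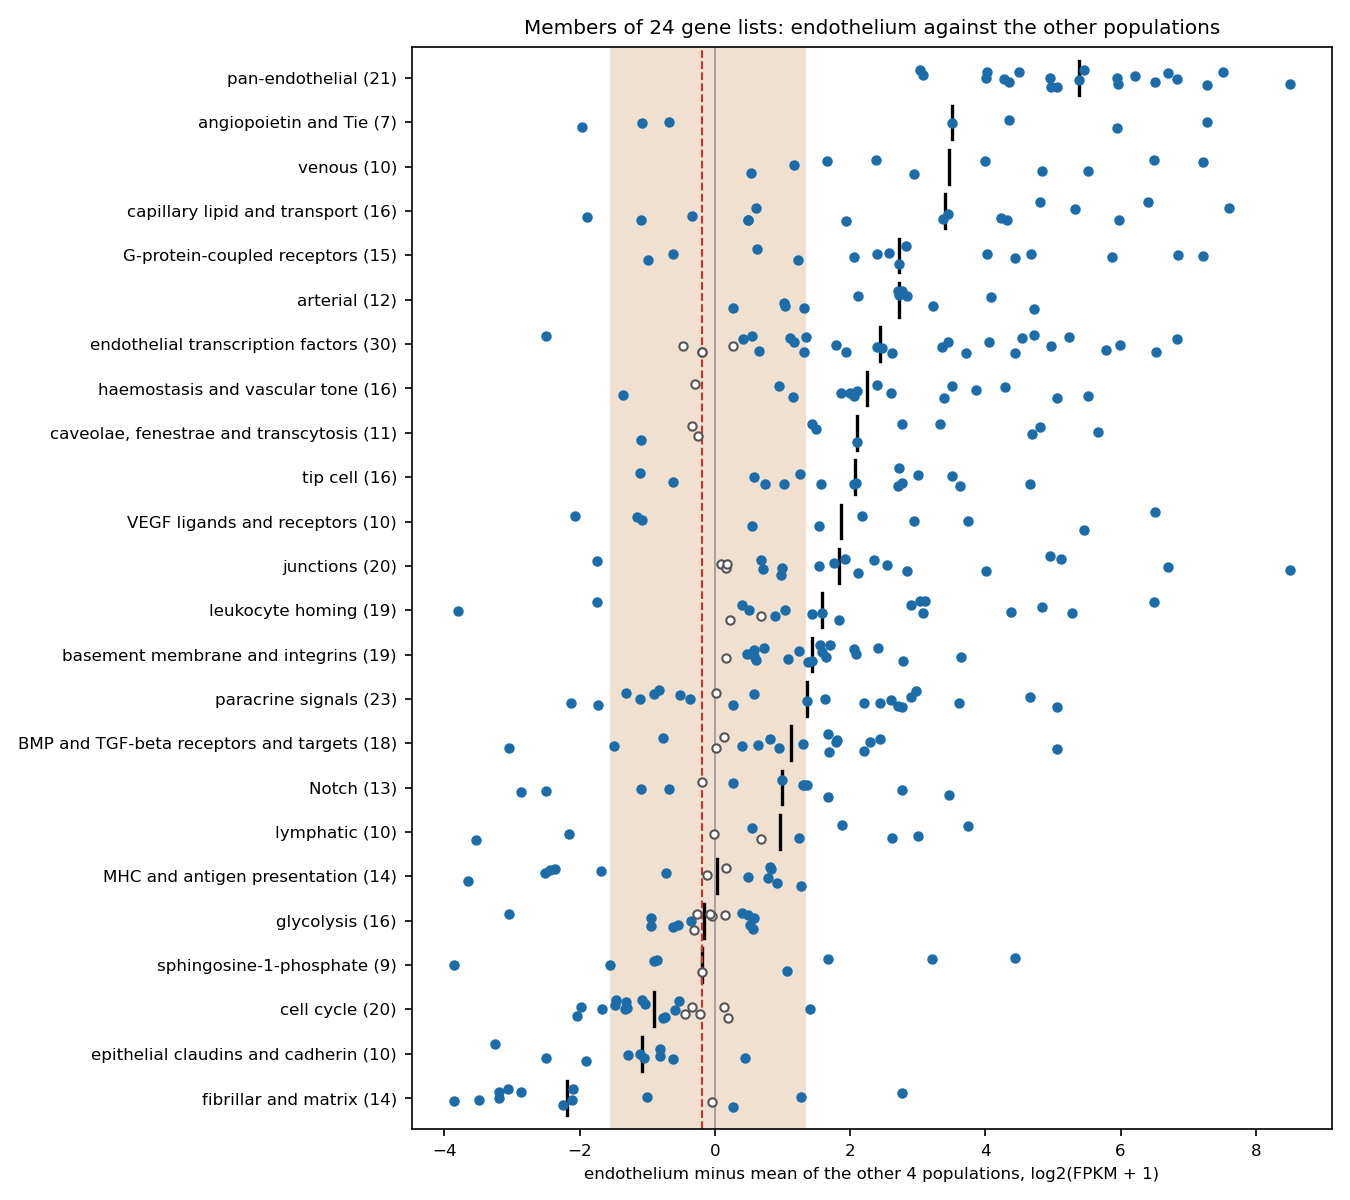
Log2 difference of each tested member of 24 gene lists, endothelium minus the mean of the 4 others, filled where the gene passed and open where not, with a black bar at the list's median. The red dashed line marks the median of all genes at -0.19 and the band their 5th to 95th percentile, from -1.54 to 1.33. Pan-endothelial, venous and capillary genes lie mostly above the band, cell cycle, fibrillar matrix and epithelial junction genes below 0.

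Of 30 transcription factors of endothelium, 25 were higher, 1 was lower and 4 did not pass, at a median of 2.44, and 18 were above each population. Erg, an ETS factor that maintains endothelial identity, stood at 113, 82.1, 125 and 111 FPKM in Trap and 98.4 and 98.05 FPKM in control endothelium, against 0.02, 0.49 and 8.19 in the others, where mTEC had the highest mean (3.54). Its relative Fli1 averaged 76.5 ± 10.5 FPKM (difference 4.97). Ets1 and Ets2 were less specific, at 58.9 and 126 FPKM in endothelium against 35.4 and 96.96 in cTEC. Sox18, Sox7 and Sox17 make up the SOXF family, and averaged 137 ± 29.3, 146 ± 15.1 and 28.98 ± 14.6 FPKM in endothelium. Sox17, the arterial member, stood at 21.6, 57.1, 23.6 and 24.7 FPKM in Trap and 15.9 and 30.99 FPKM in control endothelium, against 0, 0.01 and 0.39 in the others, with Trap replicate 2 the highest. The blood and vessel factors Tal1 (24.9 ± 7.495 FPKM, difference 4.44), Lmo2 (3.71), Gata2 (3.35) and Hhex (5.24), the repressor Bcl6b (5.995), and the homeobox genes Meox2 (3.45) and Meox1 (4.06) were higher too. Epas1, which encodes the hypoxia-inducible factor HIF-2α, was the most abundant factor of the list at 374 ± 27.6 FPKM but was close to CD146 mesenchyme (233 FPKM, log2 difference 0.699 ± 0.12, limma adjusted p = 4.40e-05). The flow-responsive factor Klf2 was higher than the mean of the others (0.65) but averaged 36.95 FPKM in endothelium, against 69.3 in CD140a mesenchyme, and it did not pass with Trap libraries alone (0.31, limma adjusted p = 0.198) or without mTEC in the mean (0.066, limma adjusted p = 0.787). Heyl, a Notch target, was lower (-2.498), with 1.12 ± 1.02 FPKM in endothelium against 67.9 in CD146 mesenchyme. Klf4 (0.27), Foxf1 (-0.48), Foxc1 (-0.19) and Hey2 (-0.196) did not pass.

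Since ETS and GATA factors were among the high genes, RefSeq promoter windows (GRCm38.p6, 250 bases before to 50 after a start) were searched on both strands for the ETS motifs ACAGGAA and CCGGAAG and the GATA motif AGATAA, none of which contains another. Of the 32817 windows, 8.67% held ACAGGAA, 8.86% CCGGAAG and 11.2% AGATAA. Among the tested gene symbols, 11927 of 16423 had a window, and 8.79%, 16.4% and 9.11% of them held the 3 motifs. The 107 genes above each population by at least 3 on the log2 scale had windows for 66, of which 27.3% held ACAGGAA, 1.52% CCGGAAG and 25.8% AGATAA. All 1042 genes above each population had windows for 772, with 11.5%, 11.7% and 9.07%, and the 995 below each population had windows for 766, with 7.83%, 16.3% and 5.87%. Of the 21 pan-endothelial genes 11 had a window, and 3 of these held ACAGGAA, none CCGGAAG and 1 AGATAA. Of the 30 transcription factors 15 had a window, with 0, 1 and 2 matches in the same order. These shares are descriptions, and a match is not a binding site. The median share of G and C bases in these windows was 54.8% for the 107 genes and 59.3% for all genes tested. It was 60.3% for the 1042 genes above and 61.7% for the 995 below each population. The motifs differ in base content themselves, and the part of base composition in these shares was not tested. Fewer than 80% of the members of these sets had a window. The 250 bases before the start are printed for the most abundant pan-endothelial and transcription factor genes with a match there, with the match in capitals (TTCCTGT and TTATCT are the reverse complements of ACAGGAA and AGATAA), 5′ to 3′ on the gene's strand. Where a gene had several windows, the first with a match before the start was taken. The Erg windows at chr16:95586544-95586843 and chr16:95530316-95530615 and the Egfl7 window at chr2:26586386-26586685 held no match. The printed stretch of Erg lies at chr16:95459349-95459598 on the minus strand, that of Emcn at chr3:137340828-137341077 on the plus strand, that of Tie1 at chr4:118489850-118490099 on the minus strand and that of Egfl7 at chr2:26580833-26581082 on the plus strand.
Erg: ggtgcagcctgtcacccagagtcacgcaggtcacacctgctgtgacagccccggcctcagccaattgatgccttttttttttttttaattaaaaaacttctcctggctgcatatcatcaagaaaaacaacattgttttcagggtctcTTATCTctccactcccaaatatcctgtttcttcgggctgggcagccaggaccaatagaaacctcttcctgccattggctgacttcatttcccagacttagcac
Emcn: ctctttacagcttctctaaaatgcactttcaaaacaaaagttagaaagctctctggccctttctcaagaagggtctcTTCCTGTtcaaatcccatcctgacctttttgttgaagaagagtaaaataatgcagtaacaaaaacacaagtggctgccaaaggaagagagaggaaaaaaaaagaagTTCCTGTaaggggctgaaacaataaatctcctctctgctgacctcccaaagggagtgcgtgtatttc
Tie1: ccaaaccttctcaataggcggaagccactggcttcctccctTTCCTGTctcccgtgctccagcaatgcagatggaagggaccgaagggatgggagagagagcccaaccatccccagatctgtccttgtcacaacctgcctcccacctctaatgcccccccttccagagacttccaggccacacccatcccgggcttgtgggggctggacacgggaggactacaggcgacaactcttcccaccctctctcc
Egfl7: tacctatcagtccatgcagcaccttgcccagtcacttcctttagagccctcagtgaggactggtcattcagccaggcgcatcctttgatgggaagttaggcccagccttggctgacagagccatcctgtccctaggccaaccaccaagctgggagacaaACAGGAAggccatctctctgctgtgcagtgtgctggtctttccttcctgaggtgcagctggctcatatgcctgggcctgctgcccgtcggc

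Among VEGF genes, the receptors were high in endothelium and most ligands were low. Besides Flt1 and Kdr, Flt4, the receptor for VEGF-C, averaged 19.9 ± 5.46 FPKM (difference 3.75), and the co-receptors Nrp1 and Nrp2 averaged 35.4 ± 4.23 and 71.02 ± 5.61 FPKM, with Nrp1 also at 26.8 in CD140a and 21.1 in CD146 mesenchyme. Vegfa, a ligand that Trap binds, stood at 8.99, 10.9, 10.6 and 13.5 FPKM in Trap and 10.6 and 11.2 FPKM in control endothelium and was below each other population (difference -1.15), of which CD140a mesenchyme had the highest mean (57.95 ± 7.31). Vegfb (-1.08) and Vegfd, listed under its older symbol Figf (-2.06), were lower as well. Vegfc, the ligand of lymphatic growth, was above each other population (19.7 ± 6.81 FPKM, difference 1.54), and placental growth factor, Pgf, was higher than the mean (0.56) with 4.05 FPKM in endothelium against 8.64 in CD146 mesenchyme. Pgf did not pass without Trap replicate 2 (0.37, limma adjusted p = 0.0794) or without Trap replicate 4 (0.44, limma adjusted p = 0.0523). In all, 7 of 10 were higher and 3 lower.

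In the angiopoietin system, 4 of 7 genes were higher and 3 lower. Tek, which encodes Tie2, stood at 94.98, 111, 86.4 and 85.5 FPKM in Trap and 90.7 and 85.9 FPKM in control endothelium, against 22.1 to 32.8 in CD140a mesenchyme and at most 3.24 on average elsewhere. Angpt2, the context-dependent antagonist that endothelium itself releases, stood at 74.7, 84.99, 71.1 and 95.9 FPKM in Trap and 63.05 and 59.7 FPKM in control endothelium, against 2.02, 3.89 and 22.3 in the others. Angpt1, the Tie2 agonist, stood at 0.19, 0.11, 0.11 and 0 FPKM in Trap and 0.3 and 0.45 FPKM in control endothelium, against 0.9, 3.36 and 12.6 in the others, with the highest mean in CD146 mesenchyme (11.1). For both ligands the endothelial libraries did not overlap with any other library, Angpt2 lying above (3.51) and Angpt1 below (-1.97). The matrix protein gene Svep1 (-1.08) and Angpt4 (-0.67) were lower.

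Notch genes split between family members. Of 13 genes 8 were higher and 4 lower. Notch4 stood at 14.9 ± 3.34 FPKM in endothelium, against at most 0.78 on average elsewhere (difference 3.46), and Notch1 at 29.03 ± 3.32 FPKM (difference 1.68). Notch2 stood at 6.2, 8.37, 3.59 and 3.47 FPKM in Trap and 4.47 and 2.27 FPKM in control endothelium, against 23.97, 41.2 and 53.9 in the others, below all 24 (-2.86 ± 0.11, limma adjusted p = 1.70e-17). Notch3, the mural receptor, was lower (-1.09; 2.05 FPKM in endothelium, 96.98 in CD146 mesenchyme). Among ligands, Dll4, which also drives T cell commitment in the cortex, was above each population, with 19.96 ± 7.85 FPKM in endothelium against 6.92 in cTEC. Dll1 was at 12.3 FPKM in endothelium against 28.5 in cTEC, and Jag1 at 32.6 against 71.1 in CD146 mesenchyme. Jag1, counted as higher (0.28), lost its call in 20 of the 30 fits that each left out a library, with limma adjusted p of up to 0.242 (without endothelial Trap replicate 2). The mediator Rbpj was lower (-0.67), while the target gene Hes1 was above each population (0.996).

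BMP and TGF-β receptors split in a similar manner, with 13 of 18 genes higher, 3 lower and 2 not passing. The type II receptor Bmpr2 averaged 160.2 ± 22.1 FPKM (difference 1.67) and the endothelial type I receptor ALK1, encoded by Acvrl1, 9.71 ± 2.92 FPKM (difference 2.29). Bmpr1a, a type I receptor, stood at 6.33, 11.2, 6.9 and 2.84 FPKM in Trap and 4.94 and 4.03 FPKM in control endothelium, against 33.5, 53.2 and 90.5 in the others (-3.04 ± 0.15), and again no library overlapped. The ligand Bmp6 (2.21), the inhibitory Smad6 (1.81) and Smad7 (1.31) and the target Id1 (1.79) were above each population. Bmp2 (-0.77) and the modulator Bmper (-1.49) were lower, and Tgfbr1 (0.01) and Id2 (0.13) did not pass.

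Of 20 junction genes, the sorting gene Pecam1 among them, 16 were higher, 1 lower and 3 did not pass. Claudin 5, the main claudin of blood vessels, averaged 38.1 ± 3.45 FPKM in endothelium and at most 0.605 elsewhere. Jam2 (5.12), the scaffold gene Tjp1, which encodes ZO-1 (1.76), afadin, listed as Mllt4 (1.92), and β-catenin, encoded by Ctnnb1 (0.99), were above each population. Occludin was the lower gene (-1.75), with 0.693 ± 0.618 FPKM in endothelium, 17.3 in cTEC and 39.9 in mTEC. The connexins Gja4 and Gja5 averaged 19.9 and 15.1 FPKM in endothelium, against 20.9 and 14.53 in CD146 mesenchyme. Jam3 (0.09), Cd99l2 (0.16) and plakoglobin, encoded by Jup (0.18), did not pass. Of 10 epithelial claudin and cadherin genes 9 were lower, led by Cdh1 (-3.25) and Cldn1 (-2.49), and Cldn12 was higher by 0.45.

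Caveolar and transport genes were high, often together with CD146 mesenchyme. Plvap, the diaphragm protein of fenestrae and caveolae, was specific, at 80.02, 86.2, 49.6 and 54.4 FPKM in Trap and 105 and 73.96 FPKM in control endothelium, against 0, 0.275 and 3.44 in the others. Cav1 averaged 451 ± 45.4 FPKM in endothelium and 199.9 ± 26.4 in CD146 mesenchyme (log2 difference between them 1.17 ± 0.26, and 0.98 with limma adjusted p = 0.138 in control libraries alone), and Ehd2, a caveolar ATPase, 269 and 115. Cavin 2, listed as Sdpr, had the wider margin (4.81). Of 11 genes 8 were higher, Mfsd2a, the lipid transporter of the blood-brain barrier, was lower (-1.09), and Ehd1 and Pacsin2 did not pass. Among 16 capillary lipid and transport genes 13 were higher and 3 lower. Gpihbp1, which anchors lipoprotein lipase, stood at 29.9, 23.8, 21.5 and 21.9 FPKM in Trap and 43.6 and 39.3 FPKM in control endothelium, against at most 0.247 on average elsewhere. Cd300lg averaged 103 ± 22.1 FPKM and the fatty acid binding protein gene Fabp4 192 ± 55.8 FPKM in endothelium. The lipase itself, Lpl, was lower (-1.896), with 1.82 FPKM in endothelium against 78.96 ± 11.1 in CD140a mesenchyme, and Fabp5 (-1.08) and the transferrin receptor Tfrc (-0.34) were lower too. Tfrc did not pass without Trap replicate 2 (-0.31, limma adjusted p = 0.0595), without Trap replicate 4 (-0.25, limma adjusted p = 0.108) or after quantile normalization, rescaling to TPM or upper quartile scaling.

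All 12 arterial and all 10 venous genes were higher, at medians of 2.72 and 3.47. Among arterial genes, Sema3g averaged 19.6 ± 3.41 FPKM, Cxcr4 40.9 ± 10.3 FPKM and Efnb2 72.97 ± 11.8 FPKM, and each was above each other population. Bmx was shared with mTEC (12.7 FPKM in endothelium, 9.56 in mTEC) and Hey1 with cTEC (43.4 and 50.8). Among venous genes, von Willebrand factor, Vwf, averaged 79.7 ± 26.9 FPKM (difference 5.52), the venous receptor Ephb4 28.5 ± 3.17 FPKM, and Nr2f2, the venous transcription factor, 13.2 FPKM against 48.2 in CD146 mesenchyme. Of 10 tested lymphatic genes 6 were higher, 2 lower and 2 did not pass. Prox1, the lymphatic master regulator, averaged 23.04 ± 13.7 FPKM and was above each population, and Lyve1 (16.6 ± 16.9 FPKM) varied widely between libraries. Pdpn and Thy1 were lower (-3.52 and -2.16), and Ccl21a (0.69) and Reln (-0.01) did not pass. Ccl21a, a chemokine gene with near-identical copies, stood at 53.2, 202, 28.99 and 30.5 FPKM in Trap and 85.5 and 16.4 FPKM in control endothelium, highest in Trap replicate 2, against 948 on average in mTEC.

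Genes for leukocyte entry were higher in 15 of 19 tested cases, lower in 2 and did not pass in 2. P-selectin, which captures T cell progenitors, stood at 149.6, 107, 138 and 176 FPKM in Trap and 96.3 and 99.01 FPKM in control endothelium, against 0.02, 0.285 and 1.6 in the others. E-selectin, Sele, stood at 177, 132, 174 and 178 FPKM in Trap and 116 and 78.8 FPKM in control endothelium, against 45.3 on average in CD140a and 22.9 in CD146 mesenchyme. The test between treatments passed for neither selectin (change 0.33 with limma adjusted p = 0.812 for Selp, and 0.94 with 0.382 for Sele). The atypical chemokine receptor Ackr1, a mark of venules, averaged 86.4 ± 30.9 FPKM, and Podxl 81.3 ± 14.96 FPKM. Icam1 and Vcam1, ligands of leukocyte integrins, averaged 67.04 and 79.9 FPKM in endothelium, but 70.8 and 136 in cTEC. Ccl25 (-1.74) and Ccl19 (-3.79) were lower, and Ccl19 is listed at 0 in all 6 endothelial libraries. Cxcl12, which guides progenitors, stood at 99.2, 111, 85.3 and 76.9 FPKM in Trap and 63.4 and 75.2 FPKM in control endothelium, against 53.99 to 67.5 in cTEC, and these ranges overlapped (log2 difference 0.49 ± 0.19, limma adjusted p = 0.034). That difference was lost without endothelial Trap replicates 1 (limma adjusted p = 0.0755), 2 (0.0907) or 3 (0.0513), without cTEC control replicate 1 (0.0588) or Trap replicates 1 (0.0502) or 4 (0.0632), and after quantile normalization (0.0915), with a pseudocount of 0.1 (0.0692), with equal weights of both treatments (0.0984) and with control libraries alone (0.786).

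In sphingosine-1-phosphate signalling, the receptors pointed in opposite directions. S1pr1 stood at 132, 101, 123 and 122 FPKM in Trap and 87.6 and 92.4 FPKM in control endothelium, against 0.6, 3.69 and 11.8 in the others (4.44 ± 0.204). S1pr3 stood at 0.85, 1.66, 0.95 and 0.41 FPKM in Trap and 1.26 and 1.91 FPKM in control endothelium, against 7.68, 26.4 and 103 in the others (-3.86 ± 0.13). Endothelium was above every other library for S1pr1 and below every other library for S1pr3, and S1pr2 was also below all of them (-1.55). The exporter Spns2, through which endothelial cells release the lipid, averaged 22.2 ± 1.19 FPKM against at most 3.13 elsewhere. The lyase Sgpl1 was lower (-0.89), as was the kinase Sphk1 (-0.85), the phosphatases Plpp1 (1.67) and Plpp3 (1.07) were higher, and Sphk2 (-0.19) did not pass.

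Of 23 tested paracrine signals 14 were higher, 8 lower and 1, Flt3l, did not pass. Kit ligand, Kitl, stood at 105, 118, 103 and 99.8 FPKM in Trap and 101 and 109.9 FPKM in control endothelium, against 6.22, 16.96 and 36.9 in the others, with no overlap (2.602 ± 0.11). Platelet-derived growth factor B, which recruits mural cells, averaged 56.6 ± 7.88 FPKM against at most 3.99 elsewhere. Endothelin 1, the vasoconstrictor, stood at 148, 209, 197 and 244 FPKM in Trap and 90.9 and 104 FPKM in control endothelium, against 0.3, 2.8 and 14.3 in the others. The change of its difference between treatments did not pass (1.41 ± 0.44, limma adjusted p = 0.176). The death ligand Tnfsf10 (3.61), Pdgfd (2.97) and Hbegf, a ligand of the EGF receptor (1.63), were above each population. Il7 (-2.13), Hgf (-1.31), Wnt2 (-0.82), Rspo3 (-0.897), Igf1 (-0.52), Igf2 (-0.36), Lif (-1.73) and Adm (-1.101) were lower, of which Igf1 did not pass after rescaling to TPM (-0.09) and Igf2 lay above 0 there (0.15). Igf2 also lost its call without Trap replicate 3 (-0.29, limma adjusted p = 0.0868) or Trap replicate 4 (-0.30, limma adjusted p = 0.0803). Among 16 haemostasis and vascular tone genes 14 were higher. Thrombomodulin, Thbd, averaged 203 ± 11.6 FPKM, the endothelin-converting enzyme Ece1 348 ± 33.97 FPKM and endothelial nitric oxide synthase, Nos3, 11.9 ± 3.35 FPKM. Prostacyclin synthase, Ptgis, was lower (-1.35) and Plat (-0.29) did not pass.

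Basement membrane and integrin genes were higher in 18 of 19 cases, yet only Col4a1, Col4a2 and Hspg2 were above each population. Col4a1 averaged 398 ± 54.1 FPKM in endothelium and 302 in CD146 mesenchyme (log2 difference between them 0.39 ± 0.07), and perlecan, Hspg2, 179 ± 14.6 FPKM. Nid1 was at 214 FPKM in endothelium against 939.7 in CD140a mesenchyme, and Itgb3 (0.16) did not pass. Of 14 fibrillar matrix genes 10 were lower, Eln (2.77), Bgn (1.28) and Fbn1 (0.27) were higher, and Col5a2 (-0.04) did not pass. Fbn1 lost its call without Trap replicate 2 (0.18, limma adjusted p = 0.103) or Trap replicate 4 (0.22, limma adjusted p = 0.0644). Elastin averaged 106 ± 88.6 FPKM in endothelium and 287 in CD146 mesenchyme. Among receptors coupled to G proteins 13 of 15 were higher, with Adgrf5 at 296 ± 45.6 FPKM (difference 5.87) and Adgrg1 at 59.7 ± 8.94 FPKM (difference 4.68), while Ramp3 (-0.62) and P2ry1 (-0.99) were lower. The call of Ramp3 was lost in 14 of the 30 fits that each left out a library, with limma adjusted p of up to 0.162 (without Trap replicate 4).

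Of 14 antigen presentation genes 6 were higher, 6 lower and 2 did not pass. H2-K1, a class I gene, was higher (0.81) and averaged 307 ± 43.2 FPKM in endothelium, 34.3 in CD140a and 87.9 in CD146 mesenchyme, 401 in cTEC and 769 in mTEC. H2-D1 (0.91), B2m (0.49), the peptide transporter genes Tap1 (0.83) and Tap2 (0.78) and the class I activator Nlrc5 (1.28) were the other higher genes. Cd1d1, which encodes a class I-like molecule that presents lipids, was lower (-0.72), and did not pass without Trap replicate 2 (-0.55, limma adjusted p = 0.0576). The class II genes H2-Aa (-2.37), H2-Ab1 (-2.51) and H2-Eb1 (-3.65), the invariant chain gene Cd74 (-2.43) and the activator Ciita (-1.69) were lower, and Tapbp (-0.11) and Cd274, which encodes PD-L1 (0.17), did not pass. H2 genes share close copies, so single values are uncertain. Glycolysis genes showed no common direction, with 5 of 16 higher, 6 lower and 5 not passing. Hexokinase 2 was the extreme, at 0.07, 0.2, 0.34 and 0.39 FPKM in Trap and 0.27 and 0.38 FPKM in control endothelium, against 4.7, 9.06 and 22.4 in the others, while Hk1 was higher (0.57; 3.88 FPKM) and the regulator Pfkfb3 was higher by 0.52.

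Genes whose 5 population means followed Cdh5 most closely were Podxl, Bcl6b, Myct1, Arhgef15, Lrg1, Ssu2 and Lalba, with Pearson's r rounding to 1, then Sox18, Adgrl4 and Tie1 at 0.999. The likeness is over 5 population means that share libraries with the contrast, so it is a description. Cdh5 averaged 600 FPKM in endothelium and at most 1.16 elsewhere. A gene near 0 in every population but endothelium can therefore come close to an r of 1, whatever its variation between endothelial libraries. Endothelial levels within this set ran from 137 ± 29.3 FPKM for Sox18 to 1.97 ± 2.96 FPKM for Lalba. In all, 18 genes had r of at least 0.999, 99 of at least 0.99 and 598 of at least 0.9, Cdh5 itself included.

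The difference between endothelium and the other populations was then compared between treatments, as the difference in Trap libraries minus the difference in control libraries. It passed for 8 genes (0.0487%) in the positive and 38 (0.231%) in the negative direction, with 1802 genes at an unadjusted p under 0.05 and a median of -0.02 over all genes. Among list members, 4 passed in limma, all negative. Ccnd1, cyclin D1, stood at 11.4, 9.48, 7.84 and 1.99 FPKM in Trap and 55.1 and 29.7 FPKM in control endothelium, and its difference from the others was 0.65 with Trap and 2.93 in control (change -2.28 ± 0.48, limma adjusted p = 0.0319). Kif11, a mitotic kinesin, stood at 2.15, 1.06, 2.02 and 1.75 FPKM in Trap and 13.3 and 10.4 FPKM in control endothelium (change -1.86 ± 0.28, limma adjusted p = 0.00215), against 7.86, 18.1 and 34.7 in the other populations. Rrm2, a ribonucleotide reductase subunit, stood at 2.46, 2.65, 3.56 and 2.32 FPKM in Trap and 11.7 and 15.8 FPKM in control endothelium (change -1.94 ± 0.399, limma adjusted p = 0.0283). Kcne3, a potassium channel subunit of tip cells, stood at 0.85, 0, 1.69 and 0.59 FPKM in Trap and 5.02 and 6.64 FPKM in control endothelium (change -1.74 ± 0.28, limma adjusted p = 0.00491). For all 4 genes every Trap value lay below both control values, but they were picked by this test, so the order adds no support. How many of all genes show such an order was not counted. Kif11 and Kcne3 kept their calls whichever library was left out, but Kif11 did not pass with 1 weight per population (limma adjusted p = 0.0811), and Kcne3 did not with a pseudocount of 0.1 (0.217) or after rescaling to TPM (0.112). Ccnd1 did not pass without endothelial control replicate 1 (limma adjusted p = 0.226), CD140a control replicate 1 (0.0535), CD146 control replicate 1 (0.0571), cTEC control replicate 1 (0.0568) or mTEC control replicate 2 (0.0527), nor with a pseudocount of 0.1 (0.0833), after rescaling to TPM (0.0867) or with 1 weight per population (0.278). Rrm2 did not pass without endothelial control replicates 1 (limma adjusted p = 0.0705) or 2 (0.0796), endothelial Trap replicate 4 (0.0513) or CD140a control replicate 1 (0.0505), with the replicate number as a block (0.0571), after quantile normalization (0.0634) or with 1 weight per population (0.298). Outside the lists, Lalba, the milk protein gene named above for its likeness to Cdh5, also passed, at 0.393 ± 0.670 FPKM (SD, n = 4) in Trap and 5.13 ± 3.53 FPKM (SD, n = 2) in control endothelium (change -2.13 ± 0.296, limma adjusted p = 0.00132). The counts rest on 2 control libraries: without endothelial control replicate 2 they were 48 and 184, without Trap replicate 1 they were 14 and 64, and without Trap replicate 3 they were 17 and 82.

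Cell cycle genes were also read within each treatment. Over all libraries 14 of 20 cell cycle genes were lower in endothelium, 1 was higher (Ccnd1, 1.41) and 5 did not pass, at a median of -0.89. With Trap libraries alone 16 of 20 were lower, against 32.5% of all genes, and none was higher, against 16.1%. With control libraries alone 4 of 20 were lower, a share near the 21.3% of all genes, and 2 were higher, against 13.2%. These counts rest on 4 Trap and 2 control libraries per population, and fewer libraries let fewer genes pass, so they cannot be set side by side. The test between treatments itself passed for 3 of the 20. The median difference of the list was -1.18 with Trap and -0.30 in control. Mki67, the proliferation marker Ki-67, stood at 14.99, 13.8, 11.8 and 6.37 FPKM in Trap and 47.3 and 37.7 FPKM in control endothelium, against 15.01, 55.7 and 103 in the others, and the test between treatments did not pass (-1.38 ± 0.47, limma adjusted p = 0.225). Of 16 tip cell genes 14 were higher and 2, Adm and Ramp3, lower, at a median difference of 1.91 with Trap and 2.43 in control. Esm1, which marks sprouting tips, stood at 2.71, 38.5, 0.67 and 2.3 FPKM in Trap and 43.5 and 33.6 FPKM in control endothelium, and among the Trap values only that of replicate 2 overlaps with the controls (change -2.93 ± 0.8, limma adjusted p = 0.109). The tip genes Angpt2 (0.23) and Pdgfb (0.16) had changes near 0 that did not pass. Without Trap replicate 2, 14 genes passed in the positive and 39 in the negative direction.

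**Figure D5:**
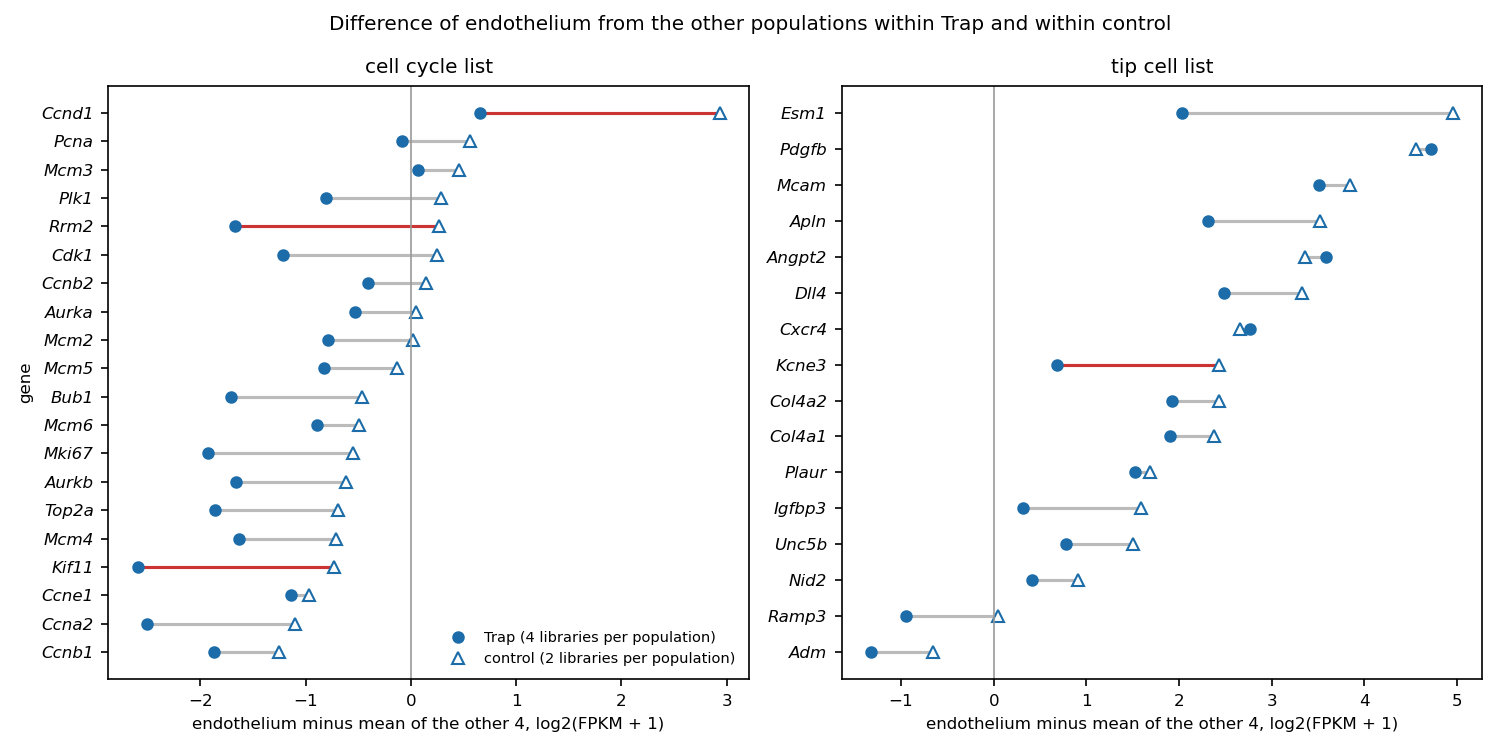
Log2 difference between endothelium and the mean of the 4 others for members of the cell cycle and tip cell lists, with filled circles for Trap and open triangles for control libraries, joined by a line that is red where the change between them passed. The cell cycle circles lie to the left of their triangles, and Ccnd1, Kif11, Rrm2 and Kcne3 are the red lines.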

How the data were processed

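RNA was measured in 30 libraries of 5 sorted populations, each with 4 Trap and 2 control libraries. The labels' protocols name the Ovation V2 system for amplified cDNA, the KAPA LTP kit for libraries and the HiSeq3000 for sequencing. STAR, DESeq2 and bcl2fastq 2.17 appear in the submitters' processing notes, with the builds GRCm38 and mm10. Which program counted reads, whether by strand, and on which annotation is not given in the sources used here, so overlapping and antisense genes are uncertain. The authors deposited FPKM values for 18847 genes, of which 18836 identifiers were found in GENCODE M21, the source of coordinates. Depth cannot be read from FPKM, so no counting interval is given.

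Values were analysed as log2(FPKM + 1) in R 4.3.3 with limma 3.58.1, fitting 10 group means over 30 libraries with a variance trend. Endothelium was set against the mean of the other 4 population means, against each of them, and its difference was compared between treatments. Tests were two-sided with Benjamini-Hochberg adjustment over 16425 genes. The fit was also run on simulated data with independent normal noise. Such data cannot show how it behaves where libraries share animals or hold cells of other types. Named genes were the 15 largest differences in each direction without overlap of libraries at 5 FPKM or more, the 5 largest of each pairwise contrast, list members that passed between treatments, list members that went against their list, and others by size or role. Members and lists were chosen with earlier results of these data known. One list is not reported here. Promoters were read from RefSeq tables of GRCm38.p6. Alternatives were pseudocounts, filters, scalings, weights, treatment subsets, dropped populations, dropped libraries and a replicate block.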

Additional observations from a re-analysis of the deposited data

Results flagged for a closer look

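Of 216 genes searched among the 4 Trap libraries of endothelium, 16 had 1 library far from the other 3 by Dixon's criterion on the log2 scale, where chance gives about 1 in 20. In 11 of the 16 that library was Trap replicate 2. It was high for Calcb (3.96 FPKM, the others listed at 0), Egfr (1.39, others 0.18 to 0.23), Flt4 (29.2, others 14.8 to 16.4), Foxn1 (11.04, others 0.04 to 0.11), H2-Eb1 (1.33, others 0.79 to 0.80), Id1 (74.2, others 59.3 to 61.2), Lyz2 (1.35, others 0 to 0.10), P2ry1 (4.53, others 0 to 0.32) and Sox17 (57.1, others 21.6 to 24.7). It was low for Plpp1 (21.9 FPKM, others 40.4 to 42.2) and Sele (131.8, others 173.98 to 178).

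Trap replicate 1 was high for Gata2 (18.1 FPKM, others 10.96 to 11.2), Jam3 (20.3, others 1.96 to 2.90) and Pdpn (5.12, others 0 to 0.03), Trap replicate 4 for Ackr1 (139 FPKM, others 86.0 to 91.2), and Trap replicate 3 was low for Lrg1 (12.03 FPKM, others 26.96 to 28.8).

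The difference between endothelium and the other populations changed with treatment, by the test of the change itself in limma, for Ccnd1 (-2.28), Kcne3 (-1.74), Kif11 (-1.86), Lalba (-2.13) and Rrm2 (-1.94 on the log2 scale, Trap minus control).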

How the results depend on the processing

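Direction and call were followed for 286 gene results under up to 48 alternatives, and 13238 of 13485 values kept both. All but the 2 gap counts stayed within 1.5 times under a pseudocount of 0.1 or 5, without a filter, with upper quartile scaling, with 5 population means, with equal weights of both treatments and without a variance trend. Counts of genes whose endothelial difference changed with treatment moved most: 16 higher and 21 lower with pseudocount 0.1, 20 and 90 with pseudocount 5, 16 lower with a filter of 5 FPKM in 6 libraries, 15 lower after rescaling to TPM, 20 lower after quantile normalization, and 0 higher and 5 lower with 1 weight per population. The filter of 5 FPKM also left 3750 lower genes in the main contrast and 3926 against mTEC, since fewer genes were tested, and quantile normalization gave 5136 higher genes against mTEC. With control libraries only, which are fewer, 3492 genes were lower in the main contrast, 2112 lower against CD140a, 1658 higher and 1898 lower against CD146, 2104 higher and 2657 lower against cTEC, 678 above each population and 401 below each. Rescaling by quantiles, upper quartile or TPM moved no list count by more than 2.

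With each library left out in turn, counts ranged from 2872 to 3051 higher and 5576 to 6136 lower in the main contrast, from 3303 to 3578 and 3392 to 3628 against CD140a, from 2428 to 2644 and 3391 to 3645 against CD146, from 2961 to 3286 and 4355 to 4644 against cTEC, from 2785 to 2996 and 6664 to 6890 against mTEC, from 1019 to 1078 above each, from 907 to 1039 below each, and from 4 to 48 higher and 26 to 184 lower for the change with treatment. Its lowest higher counts came without control replicate 1 of mTEC (4), CD140a (5) or CD146 (5). Genes that did not pass above passed in some of these fits: Ehd1 in 8, Rgs5 in 6, Klf4 and Pacsin2 in 5 each, Plat in 3, Ccl21a and Foxf1 in 1 each.

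Among named genes, those below lost their difference from the mean of the others, beside those that turned in sign. With Trap libraries only they were C1qb, Ccnd1, Cd1d1, Cldn12, Igf1, Jag1, Klf2 and Lalba. With control libraries only they were Adm, Angpt4, Bmp2, Hk1, Jag1, Lyve1, Mki67, Notch3, Ptgis, Pth, Tfrc, Vcam1, Vegfb and Wnt2. With equal weights of both treatments, a pseudocount of 5, 1 weight per population or quantile normalization, some of Fbn1, Igf2, Jag1, Pgf, Ramp3 and Tfrc lost it, and Cd1d1 with quantile normalization. Without a filter, without a variance trend, with 5 population means, upper quartile scaling or TPM, some of Igf1, Jag1, Ramp3 and Tfrc lost it. Without CD140a mesenchyme B2m, H2-K1, Pdgfra, Pfkfb3, Ptgis, Rspo3, Svep1 and Vcam1 did, and without CD146 mesenchyme Bmp2 and Vcam1. Without cTEC Cd1d1, Fabp5, Jag1, Pgf, Prss16, Ramp3 and Tfrc did, and without mTEC Bgn, Bmp2, C1qb, Cd1d1, Cd74, Cldn12, Fabp5, H2-Aa, Jag1, Klf2, Lyz2, Pgf and Pth.

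Turned in sign were, with pseudocount 0.1, Igf1 (0.013) and Igf2 (0.37); after TPM, Igf2 (0.15); with control libraries only, Fbn1 (-0.22), Igf2 (0.073), Pgf (-0.12), Ramp3 (0.045) and Rrm2 (0.27); without CD140a mesenchyme, Cd274 (-0.92), Col5a2 (1.14), Igf1 (0.74), Igf2 (0.74), Jag1 (-0.04) and Plat (0.40); without CD146 mesenchyme, Col5a2 (0.58), Jup (-0.35) and Notch3 (0.24); without cTEC, Bgn (-0.14) and Fbn1 (-0.78); and without mTEC, Fbn1 (-0.33) and Tfrc (0.049). Dropping a population changes the mean compared against; for the others the cause was not tested.

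Over 60 pairs of libraries from different populations sharing a replicate number and treatment, deviations from group means correlated at -0.05 to 0.10, with 1 pair over 0.1. The median was 0.032 in control and 0.023 in Trap. Pairs with different numbers had medians of -0.032 and -0.008 but are no independent comparison, since deviations from a group mean cancel within the group. With 2 control libraries, the values of these pairs are those of the same-number pairs with the sign turned. These correlations are small, and whether libraries with the same number share animals cannot be told from them. A fit with the replicate number as a block gave 3018 higher and 6085 lower genes, 1051 above each, 1002 below each, and 8 and 32 for the change with treatment. The depth behind the FPKM values is unknown, so low values cannot be given an interval.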
